A study of Mus musculus with 10 samples.

Results

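The receptor tyrosine kinase Ret and the ETS transcription factors Etv4 and Etv5 were followed in cultured mouse ureteric buds given GDNF or left without it. These 3 genes were chosen by symbol and Entrez identifier (Ret 19713, Etv4 18612, Etv5 104156), out of 634 genes named in the authors' deposited comparison tables. They had 6 listed probe sets, 4 on the Affymetrix 430A array and 2 on the U74Av2 array. Ret and Etv4 had 1 probe set on each type, and Etv5 had 2 on 430A and was not analysed here on U74Av2. The authors listed a probe set only if it had passed their filter for change on these same arrays. The listing covered 2.39% of 430A probe sets and 2.19% of U74Av2 probe sets as higher with GDNF. The tests below are therefore conditional on that choice, and levels are given first as a description.

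All buds were dissected from Swiss Webster embryos at E11.5 and embedded in Matrigel. The plus GDNF group received 100 ng/mL GDNF for 16 h, and the minus GDNF group was kept for 16 h without the factor. Each array type had 3 plus GDNF and 2 minus GDNF arrays, 10 arrays in all, and each array carried RNA from many pooled buds. A pool of whole buds cannot separate fewer cells of a type from less RNA per cell.

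GDNF is secreted by the mesenchyme around the bud and binds the co-receptor Gfra1, and the complex activates Ret on the bud epithelium. Ret signals through the ERK and PI3-kinase pathways and is needed for the bud to grow out and to branch. Ret is concentrated at the bud tips, where GDNF signalling is known to maintain its expression. Etv4 (also called Pea3) and Etv5 (also called Erm) belong to the PEA3 group of ETS factors, act downstream of Ret and are required together for branching. ETS proteins bind DNA around the core letters GGAA.

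Etv5 was the member with upstream sequence in the RefSeq table used here (GRCm38.p6), which holds a window for each of its 2 annotated starts, both on the minus strand. The 250 bases before each start are shown to set the ETS core beside the upstream letters of an ETS gene among the members, and capitals mark each GGAA core or its complement TTCC.
Etv5 outer start, chr16:22439571-22439820: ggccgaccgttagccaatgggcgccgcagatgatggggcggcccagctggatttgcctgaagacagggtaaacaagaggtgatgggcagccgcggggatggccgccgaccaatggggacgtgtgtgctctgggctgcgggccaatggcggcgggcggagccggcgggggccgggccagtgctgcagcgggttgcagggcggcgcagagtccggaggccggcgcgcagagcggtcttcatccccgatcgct
Etv5 inner start, chr16:22438369-22438618: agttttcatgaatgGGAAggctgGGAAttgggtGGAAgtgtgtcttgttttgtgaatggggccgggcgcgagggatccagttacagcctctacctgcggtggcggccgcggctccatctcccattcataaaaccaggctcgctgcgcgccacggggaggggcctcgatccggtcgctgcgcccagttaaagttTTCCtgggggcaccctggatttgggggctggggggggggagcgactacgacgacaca
The window of the outer start held 0 cores and that of the inner start 4, of which 3 lay 217 to 236 bases before the start and 1 lay 57 bases before it. Of 32841 RefSeq windows of 250 bases, 93.5% held at least 1 GGAA on either strand. The longer letters AGGAAG, which contain the core, were in neither Etv5 window and in 29.5% of all windows. A match or its absence describes the letters of these windows and not the binding of a factor.

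The receptor was higher with GDNF on both array types. On 430A, Ret (probe set 1421359_at) had intensities of 689.73, 574.91 and 343.66 in plus GDNF samples 1, 2 and 3, against 205.46 and 163.33 in minus GDNF samples 1 and 2. The groups did not overlap, and plus sample 3, the lowest of its group, was 1.67 times the higher minus array. Ret averaged 536 ± 176 in the plus group and 184 ± 29.8 in the minus group (SD, n = 3 and n = 2). On U74Av2, Ret (101828_at) had 407.31, 360.28 and 183.48 in the plus GDNF samples and 99.32 and 77.72 in the minus GDNF samples. Here too sample 3 was the lowest plus array, at 1.85 times the higher minus array. The means were 317 ± 118 in the plus group and 88.5 ± 15.3 in the minus group (SD, n = 3 and n = 2). The log2 change was 1.49 ± 0.30 (limma SE) on 430A and 1.77 ± 0.36 on U74Av2, or 2.81-fold and 3.41-fold. On U74Av2 it was at least 0.90, a lower bound, with the floor at the 40th percentile of the table, above the Ret minus arrays, in place of the 20th.

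Etv4 too was higher with GDNF on both types. On 430A, Etv4 (1423232_at) had intensities of 912.25, 887.17 and 464.66 with GDNF and 249.1 and 286.73 without it. Plus samples 1 and 2 were close together, and sample 3 stood well below them and above both minus arrays. On U74Av2, Etv4 (92979_at) had 994.09, 966.63 and 741 with GDNF and 273.59 and 350.72 without it. Sample 3 was again the lowest plus array, at 2.11 times the higher minus array. Etv4 averaged 755 ± 251 with GDNF and 268 ± 26.6 without it on 430A, and 901 ± 139 with GDNF and 312 ± 54.5 without it on U74Av2 (SD, n = 3 and n = 2). The log2 change was 1.43 ± 0.31 (limma SE) on 430A and 1.53 ± 0.20 on U74Av2, or 2.70-fold and 2.88-fold.

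Etv5 was read by a pair of 430A probe sets that the authors' table derives from the same accession. Probe set 1450082_s_at of Etv5 had intensities of 792.16, 599.6 and 376.12 with GDNF and 126.26 and 83.23 without it. Probe set 1420998_at of Etv5 had 357.67, 351.93 and 205 with GDNF and 118.93 and 132.03 without it. Plus sample 3 was the lowest plus array on both, and the groups did not overlap on either. All 4 minus GDNF values lay below 143, the 20th percentile of the 430A table, which served as the intensity floor of the fit. The changes are therefore lower bounds, at least 3.93-fold (log2 at least 1.97) for 1450082_s_at and at least 2.06-fold (log2 at least 1.04) for 1420998_at. In the authors' deposited table the probe set 1450082_s_at had the largest fold of all 693 listed 430A probe sets, 5.52 with bounds of 3.06 and 12.37. In the authors' deposited table the probe set 1420998_at had 2.46, with bounds of 1.62 and 3.82. With the floor at the 40th percentile these bounds were log2 1.26 and 0.39. The difference of 0.93 between the floored changes of the Etv5 probe sets reads their levels in the plus arrays alone, since all 4 minus values sit at the same floor, and it does not show that the changes differed in size.

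**Figure D1:**
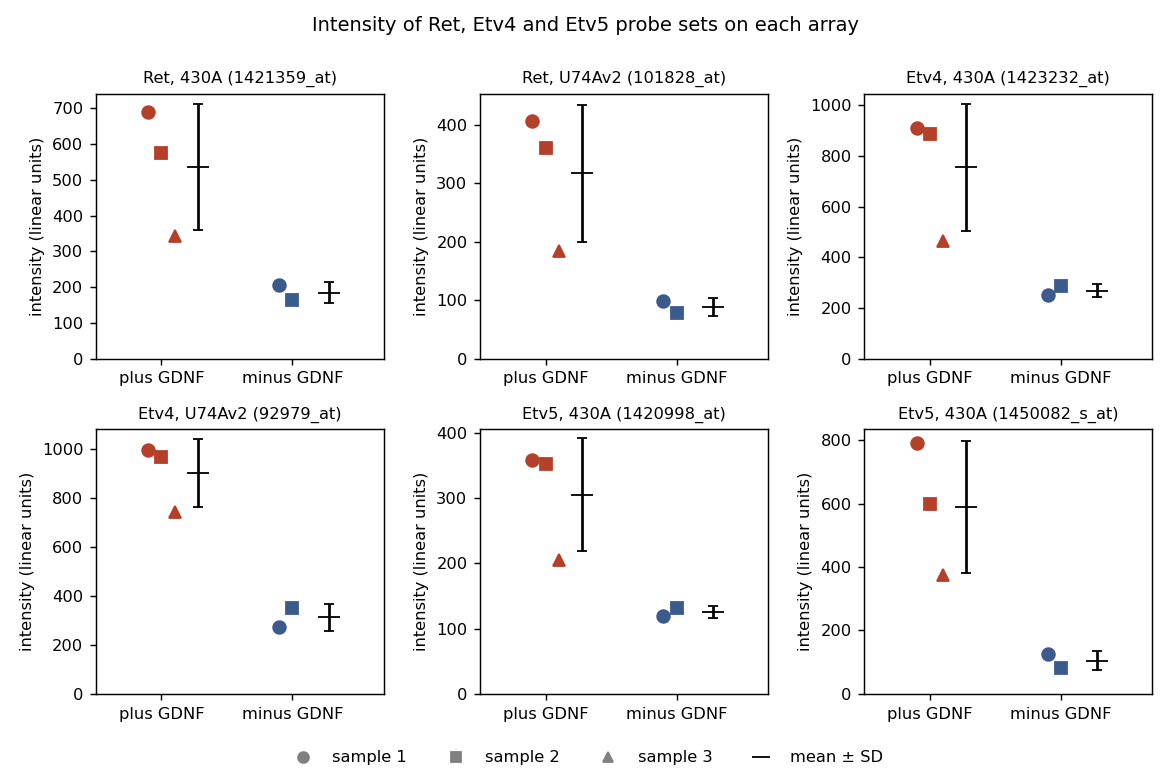
Intensity in linear deposited units (vertical axes, from 0) of each probe set of Ret, Etv4 and Etv5 in plus GDNF arrays (left) and minus GDNF arrays (right). Marker shape gives the sample number and black bars give the mean ± SD (n = 3 and n = 2); in all 6 panels the triangle of plus sample 3 is the lowest plus array and lies above both minus arrays.

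Each array type was fitted alone in limma over all its probe sets, with Benjamini-Hochberg adjustment. On 430A limma gave Ret an adjusted p of 0.14, Etv4 0.15, and Etv5 0.084 (1450082_s_at) and 0.19 (1420998_at). On U74Av2 limma gave Ret an adjusted p of 0.22 and Etv4 0.15. None of the 6 probe sets passed 0.05, on arrays where limma called 0% of 19521 probe sets (430A) and 0.00944% of 10588 (U74Av2). At an unadjusted p under 0.05, 6 of 6 were higher with GDNF, against 8.21% of probe sets on 430A and 7.77% on U74Av2. The plus arrays lay above the minus arrays without overlap for 6 of 6, against 14.9% of probe sets on 430A and 17.3% on U74Av2. Since the authors' listing used this same contrast, neither share is a result about the members. By size of the floored log2 change, Ret was in place 10 and Etv4 in place 12 of 19521 on 430A, with probe sets at the floor counted at their bound, and Etv5 is given no place because its changes are bounds. On U74Av2, Ret was in place 6 and Etv4 in place 16 of 10588.

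Over both array types together, Ret and Etv4 rose with GDNF. The mean of the log2 changes on each type was 1.63 for Ret and 1.48 for Etv4. An exact permutation of the labels within each type, two-sided over 100 arrangements, gave p = 0.01 for each gene, the smallest it can give. With a floor at the 40th percentile, above the Ret minus arrays, the log2 change of Ret was at least 1.01 (exact permutation p = 0.02). Adjusted over the 184 genes named on both types, the exact permutation p was 0.010 for Ret and Etv4, and 182 of those genes had the smallest p. All 184 had been listed by the authors for this same contrast, so these p-values are not a result about the members. In limma over both types, with array type as a fixed term, 88% of the 184 genes were higher with GDNF at an adjusted p under 0.05. Ret had 3.10-fold (limma adjusted p = 0.0014) and Etv4 2.79-fold (limma adjusted p = 4.9e-04). That fit took all arrays as independent and learned its variance from genes picked for change, which can make p too small. If same-numbered arrays of the types were relabelled together, as they would have to be had they shared pools, the exact permutation p was 0.1, again the smallest possible. The series text states different pools for each chip, while the deviations of same-named arrays from their groups correlated at 0.41 to 0.59 across the 184 genes, which are not independent replicates.

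The size of the change did not differ detectably between the array types. The change on U74Av2 minus that on 430A was 0.28 on the log2 scale for Ret (limma interaction, 95% interval -0.74 to 1.30, adjusted p = 0.89). For Etv4 it was 0.09 (95% interval -0.71 to 0.90, limma adjusted p = 0.93). Of the 184 genes, 0.543% passed the interaction test. The intervals are wide enough to hold a fold change more than 1.5 times as large on one type as on the other.

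Whether the members changed by different amounts was asked for 3 pairs, from the log2 difference of their probe sets within each array. The change of Etv4 minus that of Ret was -0.15 on the log2 scale over both types (exact permutation p = 0.47, 100 arrangements), -0.06 on 430A and -0.24 on U74Av2. On U74Av2 the difference in the plus samples 1, 2 and 3 stood at -0.53, -0.39 and 0.20 from the minus mean, against -0.36 and 0.36 in the minus samples, so the groups overlapped. With the floor at the 40th percentile, which lies above the Ret minus arrays of both types, Etv4 minus Ret was at most 0.47. The exact permutation gave p = 0.01 on these floored levels, where the change of Ret is a lower bound. The value of 0.47 therefore does not show that Etv4 changed more than Ret. Etv5 (1450082_s_at) exceeded Ret by at least 0.48 and Etv4 by at least 0.54 on 430A (exact permutation p = 0.1 for each, the smallest that 10 arrangements allow). With the floor at the 40th percentile Etv5 minus Ret was 0.13, with the minus arrays of both genes at the floor. Etv5 minus Etv4 was then at least -0.18.

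Plus sample 3 was the lowest plus array for Ret and Etv4 on both array types and for Etv5 on 430A. On 430A the log2 level of Ret over the minus mean was 1.91, 1.65 and 0.91 in plus samples 1, 2 and 3, and that of Etv4 was 1.77, 1.73 and 0.80. For Etv5 (1450082_s_at) the values were at least 2.47, 2.07 and 1.39. On U74Av2 the same quantity was 2.21, 2.04 and 1.06 for Ret and 1.68, 1.64 and 1.26 for Etv4. Sample 3 was thus lowest for 6 of 6 probe sets, a pattern singled out after the values were seen.

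Sample 3 was also the lowest plus array for 9 of 13 bud tip genes on 430A and 6 of 8 on U74Av2, genes reported downstream of Ret. Over all 542 probe sets that the authors listed as higher on 430A the median log2 level over the minus mean was 0.75, 0.65 and 0.63 in plus samples 1, 2 and 3, and sample 3 was the lowest plus array for 49.6%. Over the 273 on U74Av2 the medians were 0.91, 0.83 and 0.85, and sample 3 was lowest for 41.8%. The level in sample 3 minus the mean of samples 1 and 2 had a median of -0.07 on 430A and -0.02 on U74Av2. On 430A that difference was -0.95 for Etv4, the lowest of the 542. It was -0.87 for Ret and for 1450082_s_at of Etv5 and -0.79 for 1420998_at, so that the members filled 4 of the 6 lowest places, beside Trib2 (-0.88), a pseudokinase, and the imprinted gene Mest (-0.81). On U74Av2 Ret was the lowest of 273 at -1.06, and Etv4 was in place 27 at -0.40. These are descriptions of 1 array of each type, with no test, and the listed probe sets share those arrays.

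A larger change leaves more room for such a difference, so the share of the log2 change reached in sample 3 was also taken. On 430A it was 51.0% for Ret and 45.6% for Etv4, against a median of 90.8% over the listed rises on the floored scale. For Etv5, whose minus arrays were at the floor, it was at least 61.4% (1450082_s_at) and at least 39.5% (1420998_at). By the floored share Ret took place 26 and Etv4 place 16 from the lowest of 542. On U74Av2 it was 50.0% for Ret and 75.7% for Etv4, against a median of 97.1%, in places 6 and 60 of 273. For other bud tip genes the median difference in sample 3 was -0.29 over the 13 listed on 430A and -0.46 over the 8 on U74Av2. On 430A 0 of the 13 lay below any member probe set, whereas on U74Av2 4 of the 8 lay below Etv4. Cxcr4 had -0.53 on 430A and -0.98 on U74Av2, whereas Spry2 had 0.23 on 430A and Dusp6 0.02 on U74Av2.

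**Figure D2:**
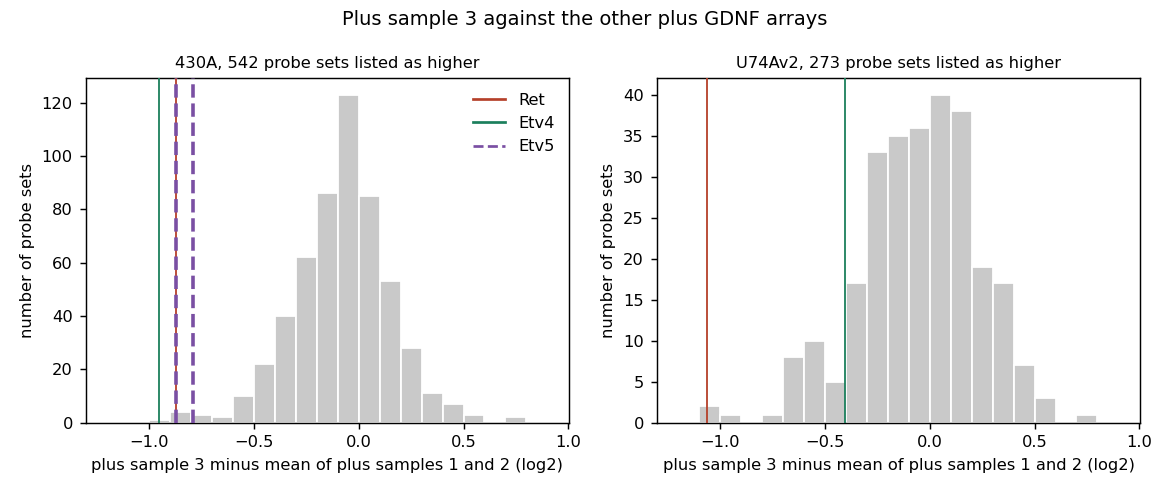
Histograms of the log2 intensity of plus sample 3 minus the mean of plus samples 1 and 2 (horizontal axis) over all probe sets the authors listed as higher, as numbers of probe sets (vertical axis), with coloured lines for Ret, Etv4 and Etv5 (dashed). On 430A the members lie between -0.95 and -0.79, at the low end, and 1 of the Etv5 lines falls on that of Ret; on U74Av2 Ret is at -1.06 and Etv4 at -0.40.

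RNA quality and array brightness were read on the same arrays. The Gapdh 3' to 5' ratio was 1.19, 1.12 and 1.52 in plus samples 1, 2 and 3 and 1.09 and 1.74 in minus samples 1 and 2 on 430A. On U74Av2 it was 1.22, 1.06 and 1.46 with GDNF and 1.10 and 1.60 without it. Plus sample 3 thus had the highest ratio of its group on both types and minus sample 2 the highest of all, and the part of this in the members' levels was not tested. Without both of those arrays, an alternative added once the values were known, the log2 change was 1.62 for Ret and 1.85 for Etv4 on 430A, and 1.95 for Ret and 1.84 for Etv4 on U74Av2. Minus sample 1 was then the lone minus array of each type, so these changes have no spread in that group. Median intensity lay between 281 and 301 in the plus and 288 and 321 in the minus arrays of 430A, and between 215 and 247 in the plus and 211 and 248 in the minus arrays of U74Av2.

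The genes around the members were taken from 4 lists, counted over genes named in the comparison tables. Of 41 genes of the GDNF and Ret receptor complex and its adaptors, Ret was the 1 named on either type, and of 24 other ETS factors 0 were named. The rest of those lists was not analysed here. Of 22 genes reported downstream of Ret or of Etv4 and Etv5 at the bud tip, 13 were named on 430A and 8 on U74Av2, and all of these were higher with GDNF, as were 76.6% of all genes named on 430A and 87.6% of those named on U74Av2. Their median log2 change was 1.08 on 430A and 1.75 on U74Av2, against 0.60 and 0.78 over all named genes and -0.07 and -0.04 over all probe sets tested. Limma's adjusted p passed 0.05 for 0 of 13 on 430A and for 1 of 8 on U74Av2, namely Wnt11. The list was written with earlier results of these data known, and its named members had all been listed by the authors for change.

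Averaged over the types that named them, the largest changes among the bud tip genes included those of Wnt11 and Cxcr4. Wnt11, a Wnt ligand of the tip, was at least 13.1-fold higher on U74Av2 (limma adjusted p = 0.011) and 2.05-fold higher on 430A (limma adjusted p = 0.16). The U74Av2 call of Wnt11 was lost without plus sample 1 (limma adjusted p = 0.075), plus sample 2 (0.057), minus sample 1 (0.21) or minus sample 2 (0.28) of that type. Cxcr4, a chemokine receptor, had log2 changes of at least 1.92 on 430A and at least 2.09 on U74Av2, with all minus arrays below the floor.

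The feedback inhibitors and the other targets followed. Spry1 and Spry2, inhibitors of receptor tyrosine kinase signalling, had log2 changes of 1.71 and 1.08 on 430A. Dusp6, a phosphatase of ERK, had 1.42 on 430A and 1.89 on U74Av2, and Spred2, an inhibitor of the Ras pathway, had 1.14 and 1.61 on these types. Ccnd1, the G1 cyclin D1, had 1.67 on 430A and 1.50 on U74Av2. The transcription factors Myb and Tcf7 had 0.85 and 0.76 on 430A and 1.45 and 1.07 on U74Av2. On 430A the changes of Ret (1.49) and Etv4 (1.43) lay within the range of these genes, beside at least 1.97 and at least 1.04 for Etv5.

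**Figure D3:**
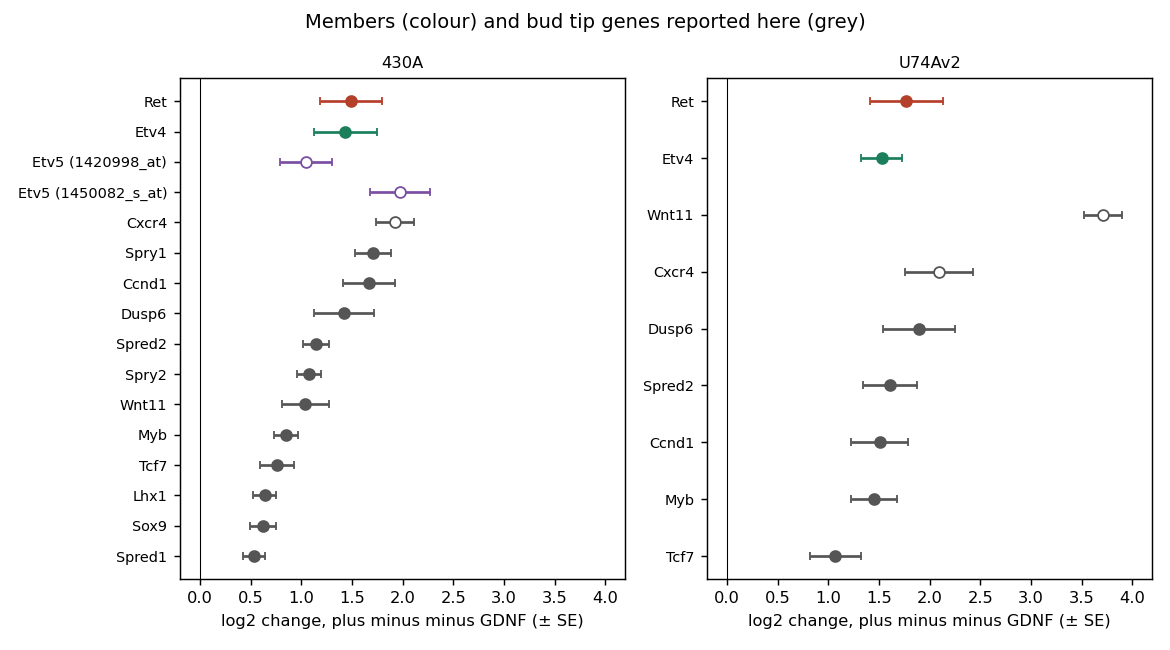
Log2 change, plus minus minus GDNF, with limma SE bars (horizontal axes), for Ret, Etv4 and Etv5 (colour) and other bud tip genes (grey) on 430A and U74Av2. Open circles mark probe sets whose minus arrays were all below the floor, so that the value is a lower bound; the members lie between 1.04 and 1.97 on 430A and between 1.53 and 1.77 on U74Av2.

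Of 22 regulators of Ret expression or of bud identity, 3 were named on 430A and none on U74Av2. Sox9, a transcription factor of the bud tip, had a log2 change of 0.62 ± 0.13 and Lhx1, a LIM homeobox factor, 0.64 ± 0.11 (limma SE). Foxc2, a forkhead factor of the mesenchyme, had -0.59 ± 0.16. Limma's adjusted p passed 0.05 for 0 of the 3.

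The genes whose arrays most resembled those of the members were found by the root mean square difference of log2 levels, each taken over the minus mean of its type. On 430A, over 5 arrays and 542 other named genes, Etv4 was the nearest gene to Ret and Ret the nearest to Etv4, at 0.19. The median distance from Ret to all named genes was 0.76. Next to Ret came Mtm1, a phosphoinositide phosphatase, at 0.20 and Ccnd1 at 0.20. Next to Etv4 came Mtm1 at 0.27 and Mest at 0.32. Over all 10 arrays and 183 other genes named on both types, Mtm1 was nearest to Ret (0.29), ahead of Etv4 (0.30) and Ccnd1 (0.31). Mtm1 was also nearest to Etv4 (0.26), ahead of Ret (0.30) and Ctnnd2 (0.31), a catenin of the delta family. Among the genes near Etv5 on 430A were Cxcr4 (0.15, place 1 of 542), Spry1 (0.31, place 2), Ret (0.39, place 5) and Etv4 (0.44, place 7). The minus arrays of both Etv5 and Cxcr4 were at the floor, so 2 of the 5 arrays matched by construction there. These distances describe likeness over shared arrays and carry no test.

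Markers of the bud and of other cells possibly dissected with it were set beside these values, as far as they were named. Of 19 markers of ureteric bud epithelium, 8 were named on 430A, where 4 were higher and 4 lower with GDNF. The keratins Krt8 (log2 -0.52) and Krt7 (-0.65), the cadherin Cdh16 (-0.92) and the matrix protein Npnt (-0.77) were lower, and Calb1, which binds calcium (0.72), Ret, Wnt11 and Lhx1 were higher. Their summed intensity on 430A was 16511 to 17179 with GDNF and 18156 to 18497 without it. On U74Av2, 3 of the 19 were named (Ret, Wnt11 and Calb1, 0.99), and their summed intensity was 4339 to 5568 with GDNF and 1711 to 2223 without it. Of 16 stromal markers, 5 were named on 430A and 3 on U74Av2, all lower with GDNF. Of all genes named, 76.6% on 430A and 87.6% on U74Av2 were higher. On 430A the summed intensity of the named stromal markers was 4671 to 5776 with GDNF and 8013 to 8538 without it. On U74Av2 it was 2034 to 2128 with GDNF and 3174 to 3247 without it. Of 14 mesenchymal markers, 3 were named on 430A, where the sum was 1161 to 1264 with GDNF and 1797 to 1959 without it, and 1 on U74Av2, at 209 to 269 with GDNF and 382 to 575 without it. None of the 8 endothelial and 9 blood and macrophage markers was named, and no named marker was at 0. Named markers are those listed for change, so a marker not named is not thereby absent, and its level was not read here. The named markers were listed for this same contrast, so gaps between the groups in their sums do not give the amount of any cell type. The part of these markers in the changes of Ret, Etv4 and Etv5 was not tested.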

How the data were processed

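Processed files of 10 Affymetrix arrays were used, with groups and sample numbers from the titles. The deposited value tables hold linear intensities (22690 probe sets on 430A, 12488 on U74Av2), whose normalization is not given in the sources used here. Signed fold changes (unit score) and group means from dChip 1.3, per the series text, come from the authors' deposited comparison tables, which list probe sets whose lower 90% fold bound exceeded 1.2 and whose difference of means exceeded 100. Per the labels, each array carried RNA of about 5 to 6 batches of 30 to 40 buds.

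Entrez identifiers of these tables were brought to current symbols with the GRCm38.p6 RefSeq gene table, used for names only (661 of 693 and 292 of 312 probe sets with 1 protein-coding gene). Intensities below each table's 20th percentile (143 and 65.0) were set to it and log2 was taken. Control probe sets (64 and 66) and those at the floor on all arrays were left out. Tests used limma 3.58.1 in R 4.3.3 (lmFit, eBayes) within each type, checked on simulated data, and exact permutations over arrays. The fit over both types used each gene's brightest named probe set, learned its variance from genes picked for change, which can make p too small, and adjusted over 10588 tests. Members and lists were chosen with earlier results of these data known. Genes were named by membership, by list (up to 10 by mean change) and as the 3 nearest in likeness, and Trib2 after its value was seen; 1 gene of the counts and rankings is not reported here by name. P-values measure the spread between arrays, whose number limits precision. Alternatives were other normalizations, floors, filters, variance models, a sample number block and leaving out arrays.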

Additional observations from a re-analysis of the deposited data

How the results depend on the processing

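Leaving out each array in turn left the log2 change of Ret over both types between 1.52 and 1.81 and that of Etv4 between 1.39 and 1.64, with exact permutation p between 0.017 and 0.033. On single types these ranges were 1.28 to 1.78 (Ret, 430A), 1.55 to 2.12 (Ret, U74Av2), 1.26 to 1.75 (Etv4, 430A), 1.35 to 1.71 (Etv4, U74Av2), 1.73 to 2.27 (Etv5 1450082_s_at) and 0.91 to 1.31 (Etv5 1420998_at), with no limma adjusted p under 0.05. The difference between array types ranged from -0.011 to 0.63 for Ret and from -0.22 to 0.27 for Etv4, and Etv4 minus Ret from -0.33 to 0.028. Etv5 minus Ret ranged from 0.32 to 0.65, Etv5 minus Etv4 from 0.44 to 0.64, and the floored Etv5 probe set difference, which reads plus arrays alone, from 0.82 to 1.01. A lone minus array was assumed to vary like the plus arrays.

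The 6 probe sets kept their direction under every alternative run. The floor at the 40th percentile lowered Etv5 1450082_s_at to 1.26, Etv5 1420998_at to 0.39 and Ret on U74Av2 to 0.90, each a lower bound. With probe sets above the median level alone, fewer of them tested, Etv5 1450082_s_at passed in limma at the same log2 change of 1.97 (adjusted p = 0.033), and Etv5 1420998_at and Ret on U74Av2 were not among the probe sets kept. Its limma adjusted p ranged from 0.033 to 0.43 over all alternatives. The same relabelling on both types left Ret at 1.63 and Etv4 at 1.48 with exact permutation p = 0.1, the smallest of 10 arrangements. No Ret minus array lay at or above the floor at the 40th percentile (236 on 430A, 161 on U74Av2). With that floor Ret over both types was at least 1.01 (exact permutation p = 0.02), and its array type difference, between lower bounds, was -0.23. Etv4 minus Ret was at most 0.47 and Etv5 minus Etv4 at least -0.18. Quantile normalization turned the array type difference of Etv4 to -0.014. With sample number as a replicate block, limma gave log2 changes of 1.78 (Ret) and 1.75 (Etv4) on 430A, 2.12 and 1.66 on U74Av2, and 1.95 and 1.71 over both types, with no call changed. Plus sample 3 has no minus array of its number, so the values on single types equal those with plus sample 3 left out. The numbers were not taken to pair the groups: deviations of plus and minus sample 1 correlated at -0.015 on 430A and 0.16 on U74Av2, and those of sample 2 at -0.62 and -0.70. The level of sample 3 in the members kept places 1 to 6 of 542 on 430A under quantile normalization and median centring, chosen after the data were seen. On U74Av2 Ret kept place 1 of 273 and Etv4 took places 29 and 27. The share of the log2 change reached in sample 3 moved more on U74Av2, where its median over the listed rises was 84.3% and 79.1%. By that share Ret took place 14 under both scalings, and Etv4 places 78 and 83.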

Other observations

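The authors' deposited table gives Etv4 a plus GDNF mean of 1025.92 on U74Av2, above all 3 deposited plus GDNF values of that probe set, the highest of which is 994.09. For Ret the authors' deposited table gives 334.81 with GDNF and 89.95 without it, both within the range of the arrays. Over the 312 listed U74Av2 probe sets, 113 plus GDNF and 168 minus GDNF means of the authors' deposited table lay outside the range of the deposited arrays by more than 0.01, against 0 and 0 of 693 on 430A. The mean of Etv4 is thus not an average of the deposited values, and the folds on U74Av2 in the authors' deposited table, 3.72 for Ret and 3.03 for Etv4, are set apart here from those of the values.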
